A study of Mus musculus with 12 samples.

Results

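Mitochondrial ribosomal proteins were taken as every row whose gene name is Mrpl or Mrps followed by a number, pseudogene names ending in -ps left out. This gave 75 of the 43686 rows, 47 of the large subunit (Mrpl) and 28 of the small subunit (Mrps). Poly-A RNA of the ventricular wall was sequenced in 6 WT and 6 KO libraries of mice of the C57BL/6 strain by the labels and C57BL/6J by the study's methods. All animals carried floxed Sdhaf4 alleles (Sdhaf4fl/fl). WT had no Cre, and KO, labelled Sdhaf4-/-, carried Ckmm-Cre, which is active in cardiac and skeletal muscle, so the other cells of the wall keep intact alleles. The labels give an age of 2 months for both groups and the study's text a younger age, while its reporting summary gives male mice of either a younger age or about that of the labels. No further treatment is given. Sdhaf4 encodes an assembly factor of succinate dehydrogenase (complex II), and the comparison asks what its loss does to the heart's transcripts, here those of the mitochondrial translation machinery.

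Mitochondria translate the few proteins encoded by their own DNA, all of them subunits of the oxidative phosphorylation complexes, on a ribosome of their own. Its rRNAs come from mitochondrial DNA, while every protein of its small subunit, which reads the mRNA, and of its large subunit, which forms peptide bonds, is encoded in the nucleus and imported. Part of these proteins have relatives in the bacterial ribosome and the rest are found only in mitochondria.

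Library totals were 23747014 to 27159228 counts in WT and 26542930 to 31393393 in KO. Sdhaf4 lay between 14.3 and 30.3 CPM (counts scaled to library size by TMM) in WT, with a median of 26.7, and between 2.25 and 2.73 CPM in KO, with a median of 2.35. The WT value of 14.3 CPM was that of WT6, and the other WT libraries were at 24.1 to 30.3 CPM. The groups did not overlap (log2 fold change −3.39, SE 0.16, edgeR adjusted p = 1.95e-10). The labels do not say that each library came from its own mouse, so the p-values measure the spread between these libraries. At an adjusted p under 0.05 (edgeR), 25.5% of all 17155 rows tested were lower in KO and 25.6% were higher. Of the marker lists, 7 of 7 fibroblast genes rose. Their summed level was 1196 to 1356 CPM in WT and 2266 to 3765 CPM in KO. Of 9 cardiomyocyte markers 5 fell and 2 rose, with sums of 49109 to 53683 CPM in WT and 41244 to 56639 CPM in KO. Among 5 endothelial markers 3 rose (1208 to 1361 CPM in WT, 1313 to 1607 CPM in KO), of 5 smooth muscle and pericyte markers 1 fell and 2 rose (1230 to 1468 CPM and 1312 to 1759 CPM), and of 4 macrophage markers 2 fell (118 to 164 CPM and 110 to 174 CPM). The 2 erythroid markers tested did not pass the test (293 to 1012 CPM and 615 to 1226 CPM). Lymphocyte markers summed to under 3 CPM in every library, and the atrial markers Myl7 and Sln were under 1 CPM. The remaining atrial marker, Myl4, rose from 2.12 to 3.49 CPM (log2 fold change 0.72, SE 0.19, edgeR adjusted p = 0.00515). The part of these lists in the results below was not tested, and in tissue RNA fewer cells of a type and less RNA per cell cannot be told apart.

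Transcripts of mitochondrial ribosomal proteins were mostly lower in KO, by small amounts, while a minority rose. Of the 75 members 74 passed the filter on low counts, and at an adjusted p under 0.05 (edgeR) 41 of them, or 55.4%, were lower in KO against 25.5% of all 17155 rows tested. Another 12 members, or 16.2%, were higher against 25.6% of all rows. The remaining 21 did not pass the test. The median log2 fold change of the 74 was −0.20 (0.00 over all rows), with an SD between members of 0.33 (0.81 over all rows). Every KO library lay below every WT library for 27 members and above for 8, with all-row shares of 15.2% and 14.9%. Under the stricter call, with the threshold at 0.005 and a change of at least 1 on the log2 scale in either direction, the members had 1 rise, Mrps34, where 5.36% of all rows rose and 4.87% fell. No member fell by as much as 1 on the log2 scale, the largest fall being −0.85 (Mrpl42). Replicates were tight, with a median coefficient of variation over the members of 6.40% in WT and 7.23% in KO.

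**Figure D1:**
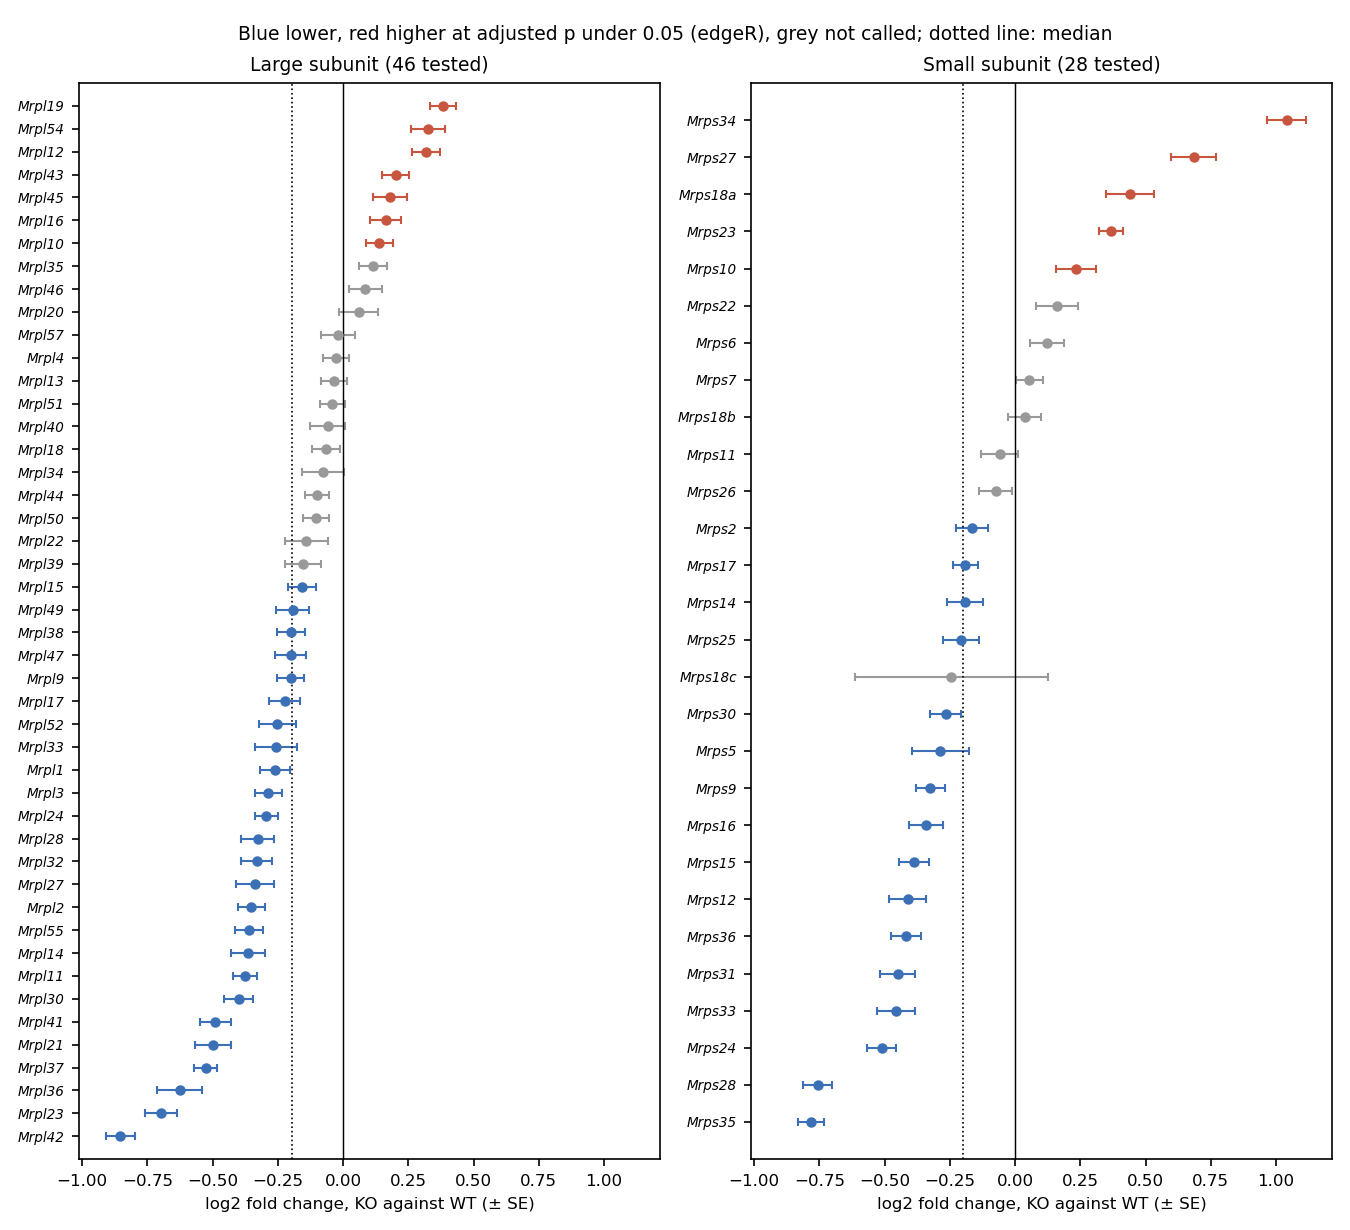
Log2 fold change of KO against WT (x axis, ± SE from edgeR, 6 libraries per group) for the 46 tested large-subunit members and the 28 small-subunit members, each gene on a line of its own. Blue points were lower and red points higher at an adjusted p under 0.05, grey points were not called, and the dotted line is the median of the subunit, −0.20 in both. The large subunit spans −0.85 to 0.38 and the small subunit −0.78 to 1.04.

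RefSeq promoter windows of GRCm38.p6, 250 bases before to 50 bases after a gene's start, were found for 66 members. The windows were searched on both strands for motifs of factors known to act on nuclear genes of mitochondrial proteins: CCGGAAGT (ETS family), GCGCATGC (the NRF1 core), AAGATGGCG (YY1), TCAAGGTCA (ERR) and CACGTG (E-box). Of 69 member windows 15.9% held the ETS letters, against 3.89% of all 32851 windows and 7.42% of the windows of genes tested here. The NRF1 core stood in 11.6% (2.71% of all windows and 4.95% of those of tested genes), YY1 in 11.6% (1.40% and 2.80%), the E-box in 10.1% (7.15% and 9.63%) and ERR in 0 (0.423% and 0.256%). Counted by gene, the E-box stood in 5 of 66 members, since Mrpl2 enters with more than 1 window. In all, 25 members held ETS, NRF1 or YY1 letters. In the 40 windows of members that fell and the 9 of members that rose, ETS stood in 10% and 22.2%. NRF1 stood in 10% and 11.1%, YY1 in 10% and 22.2%, and the E-box in 12.5% and 0. The E-box share of the falls counts Mrpl2 repeatedly (at −147, −139 and −131 from its starts), beside Mrpl36 and Mrpl37. Of the 9, ETS and YY1 stood in 2 each and NRF1 in 1, that of Mrpl10. Windows of both kinds, picked because they hold these letters, are printed below. Mrpl42 and Mrpl37 fell, and Mrps27, Mrps18a and Mrpl10 rose. The call of Mrpl10 was kept in 5 of 12 runs with a library left out. Capitals mark the motifs, none of which overlap here: AAGATGGCG in all but Mrpl10, with CACGTG upstream in Mrpl37 and ACTTCCGG (ETS on the other strand) upstream in Mrps27, and GCATGCGC (NRF1 on the other strand) in Mrpl10. A match is a string of letters and not a measured site.
Mrpl42, chr10:95501900-95502199, minus strand: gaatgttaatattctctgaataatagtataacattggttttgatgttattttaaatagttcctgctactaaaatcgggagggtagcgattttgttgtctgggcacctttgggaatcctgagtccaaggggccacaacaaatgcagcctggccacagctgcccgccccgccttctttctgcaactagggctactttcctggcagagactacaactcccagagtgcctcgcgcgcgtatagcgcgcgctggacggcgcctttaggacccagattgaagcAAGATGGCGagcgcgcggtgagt
Mrpl37, chr4:107066817-107067116, minus strand: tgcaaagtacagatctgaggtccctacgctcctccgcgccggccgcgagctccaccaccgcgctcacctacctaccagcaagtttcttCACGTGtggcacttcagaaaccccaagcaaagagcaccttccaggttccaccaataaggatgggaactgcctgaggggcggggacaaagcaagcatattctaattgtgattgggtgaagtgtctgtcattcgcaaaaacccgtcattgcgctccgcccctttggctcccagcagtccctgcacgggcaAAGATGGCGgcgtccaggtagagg
Mrps27, chr13:99344536-99344835, plus strand: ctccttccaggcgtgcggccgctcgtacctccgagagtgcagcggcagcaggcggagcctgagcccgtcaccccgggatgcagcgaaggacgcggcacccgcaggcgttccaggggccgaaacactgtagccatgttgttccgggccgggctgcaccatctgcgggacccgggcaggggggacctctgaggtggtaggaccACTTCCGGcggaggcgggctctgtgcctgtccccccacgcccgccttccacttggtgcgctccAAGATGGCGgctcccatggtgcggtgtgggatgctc
Mrps18a, chr17:46110754-46111053, plus strand: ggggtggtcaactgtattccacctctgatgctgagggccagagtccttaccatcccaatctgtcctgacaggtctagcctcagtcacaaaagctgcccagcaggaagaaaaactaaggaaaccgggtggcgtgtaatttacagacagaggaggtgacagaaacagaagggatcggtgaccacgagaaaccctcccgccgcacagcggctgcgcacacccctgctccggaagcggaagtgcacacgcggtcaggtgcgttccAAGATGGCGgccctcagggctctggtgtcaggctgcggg
Mrpl10, chr11:97041332-97041631, plus strand: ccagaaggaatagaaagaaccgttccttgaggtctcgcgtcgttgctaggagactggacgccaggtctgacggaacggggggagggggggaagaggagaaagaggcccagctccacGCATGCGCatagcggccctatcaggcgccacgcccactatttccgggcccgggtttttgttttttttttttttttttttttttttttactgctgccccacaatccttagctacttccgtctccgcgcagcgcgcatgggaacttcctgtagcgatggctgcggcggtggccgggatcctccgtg

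Of the large subunit, 25 of 46 tested members fell, 7 rose and 14 were not called, with a median of −0.20 and an SD of 0.27. These are 54.3% falls and 15.2% rises, against 25.5% and 25.6% of all rows. Mrpl42, a mitochondria-specific protein, had the highest level per length of all members, a mean of 361 FPKM (chr10:100251809-100275673, minus strand, C57BL/6NJ assembly, as for all member coordinates). Its level was 283 to 328 CPM in WT, median 315, and 155 to 192 CPM in KO, median 170. The groups were far apart (log2 fold change −0.85, SE 0.06, edgeR adjusted p = 2.90e-09). Mrpl23, one of the proteins around the exit tunnel through which the new peptide leaves, was at 44.5 to 53.8 CPM in WT (median 49.5) and 28.5 to 33.7 CPM in KO (median 29.1). No KO library reached a WT library (log2 fold change −0.70, SE 0.06, edgeR adjusted p = 8.27e-08; chr7:153134259-153142036). Mrpl37 lay between 75.1 and 79.9 CPM in WT, median 76.9, and between 51.0 and 58.2 CPM in KO, median 53.2 (log2 fold change −0.53, SE 0.04, edgeR adjusted p = 3.66e-08). Mrpl36, a small protein with a bacterial relative, fell from 27.1 ± 2.59 to 17.6 ± 2.26 CPM (SD, n = 6 each). The other large falls were those of Mrpl21 (log2 fold change −0.50), Mrpl41 (−0.49) and Mrpl30 (−0.40), all with KO below WT in every library, and Mrpl30 was second in level per length in the subunit at 178 FPKM. Next in level was Mrpl18, at 173 FPKM, a relative of the bacterial protein that binds 5S rRNA. It was not called (86.0 to 102 CPM in WT and 81.3 to 94.4 CPM in KO, log2 fold change −0.07, SE 0.05). The FPKM of Mrpl30 and Mrpl18 are higher than CPM over their deposited row lengths, 1757 and 1219 bases, would give. Their ranks depend on the length used.

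The 3 proteins of the stalk, the arm of the large subunit that receives translation factors, did not move together. Mrpl11, at its base, was at 56.9 to 63.1 CPM in WT (median 60.0) and 44.5 to 49.3 CPM in KO (median 46.3), with no overlap (log2 fold change −0.38, SE 0.05, edgeR adjusted p = 2.74e-06). Mrpl12, which forms the stalk's mobile arms and has also been reported to bind the mitochondrial RNA polymerase, was higher, at 115 to 141 CPM in WT (median 129) and 153 to 168 CPM in KO (median 161). Its groups did not overlap either (log2 fold change 0.32, SE 0.05, edgeR adjusted p = 7.77e-05); its span shares 2244 bases with an unnamed row on the other strand, at 5.98 CPM in WT and 8.24 CPM in KO. Mrpl10, which ties the arms to the ribosome, was at 41.8 to 46.2 CPM in WT and 44.2 to 50.6 CPM in KO, with overlap. Its rise (log2 fold change 0.14, SE 0.05, edgeR adjusted p = 0.0293) was lost when any of 7 libraries was left out, for example 0.0719 without KO3.

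Of the 6 proteins around the exit tunnel (Mrpl17, Mrpl22, Mrpl23, Mrpl24, Mrpl45 and Mrpl47) 4 fell and 1 rose, with a median log2 fold change of −0.21 (all rows, 25.5% lower and 25.6% higher). The one that rose was Mrpl45, which faces the inner membrane, at 41.3 to 53.8 CPM in WT and 46.4 to 58.3 CPM in KO. The groups overlapped and the call (log2 fold change 0.18, edgeR adjusted p = 0.0300) was lost without any of 8 of the 12 libraries, with adjusted p from 0.0512 to 0.0744. Beside Mrpl12, groups also stayed apart among the large-subunit rises in Mrpl19 (19.7 to 21.3 CPM in WT, 25.7 to 28.3 CPM in KO, log2 fold change 0.38, SE 0.05), Mrpl54 (32.1 to 43.3 CPM in WT, median 36.4, and 44.1 CPM or more in KO, median 46.4, 0.32, SE 0.06) and Mrpl43 (44.4 to 48.8 and 50.7 to 60.4 CPM, 0.20, SE 0.05). In each the highest WT library stayed below the lowest KO library. In Mrpl43 the KO1 library stood apart at 60.4 CPM, with the other KO libraries at 50.7 to 52.6 CPM. Mrpl16 rose less, also without overlap (log2 fold change 0.16, edgeR adjusted p = 0.0279), with KO3 at 84.2 CPM and the other KO libraries at 66.2 to 68.1 CPM. Without KO3 its log2 fold change was 0.10 and its adjusted p 0.0580. The Mrpl16 call was also lost without WT1, WT3 or WT5 (edgeR adjusted p 0.0509 to 0.0690). Without WT1 the count of large-subunit rises fell from 7 to 4.

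Mrpl53 had 0 counts in all 12 libraries. By counting error alone this would allow up to 3 counts, or 0.0956 to 0.126 CPM, per library. Its row (chr6:86399699-86400598) lies wholly inside Gm42688 on the same strand, which was at 0.614 CPM in WT and 0.522 CPM in KO. How reads in the shared bases were assigned is not given, so the 0 may come from the annotation. The bound is then no limit on the transcripts of Mrpl53.

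**Figure D2:**
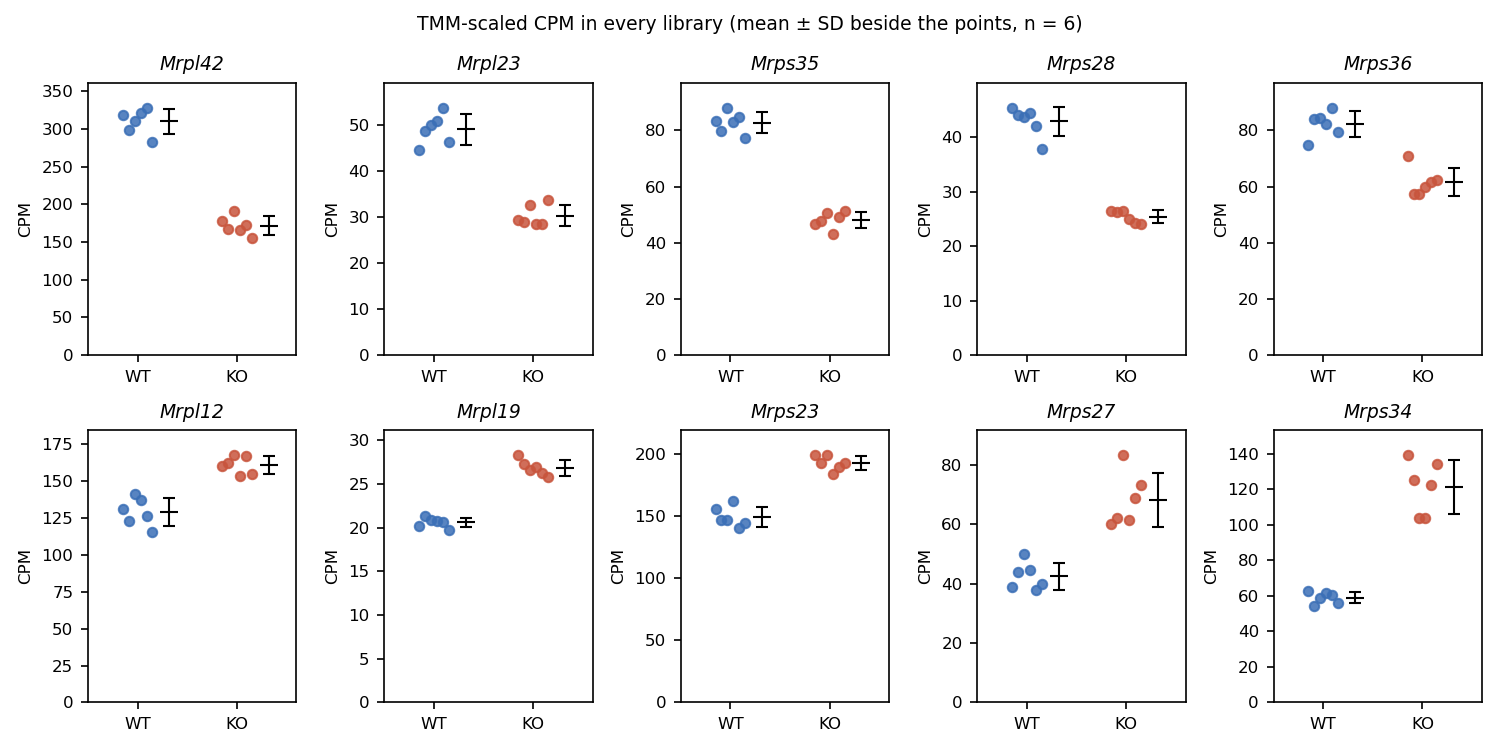
TMM-scaled CPM (y axis, from 0) of 10 members in each of the 12 libraries, replicate 1 to 6 from left to right within WT (blue) and KO (red), with the mean ± SD (n = 6) beside the points. The top row holds 5 members that fell and the bottom row 5 that rose, and in all 10 the points of WT and KO do not overlap. Mrps34 has the largest rise, from 59.0 to 121 CPM.

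Falls made up 57.1% of the small-subunit members and 54.3% of the large-subunit members tested, and the 3 largest rises carry small-subunit names (Mrps34, Mrps27 and Mrps18a), of which Mrps18a sits in the large subunit of the particle. Of 28 members 16 fell, 5 rose and 7 were not called, with a median of −0.20 and an SD of 0.41. The rises made up 17.9%, and of all rows 25.5% fell and 25.6% rose. Mrps35, a mitochondria-specific protein (chr6:156124457-156158075), was at 77.4 to 88.1 CPM in WT, median 83.3, and 43.1 to 51.2 CPM in KO, median 48.6. The groups did not overlap (log2 fold change −0.78, SE 0.05, edgeR adjusted p = 2.80e-09). Mrps28, a bacterial-type protein, lay between 37.9 and 45.4 CPM in WT, median 43.9, and between 24.0 and 26.5 CPM in KO, median 25.6, again without overlap (log2 fold change −0.76, SE 0.06, edgeR adjusted p = 1.03e-08). Mrps24, a relative of bacterial S3 near the mRNA entry, was at 75.4 to 92.2 CPM in WT and 52.7 to 65.4 CPM in KO (log2 fold change −0.51, SE 0.06). Mrps33 (−0.46) and Mrps31 (−0.45) fell as well, and in Mrps31 the KO3 library, at 37.6 CPM, reached into the WT range.

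Mrps34, a mitochondria-specific protein of the small subunit, was the only member past the stricter call. It was at 54.5 to 62.8 CPM in WT, median 59.6, and at 104 to 139 CPM in KO, median 124 (log2 fold change 1.04, SE 0.07, edgeR adjusted p = 6.40e-09). The groups did not overlap, but the value has a limit in the annotation. The row (chr17:24983426-24985812) shares 1003 bases with Nme3, a nucleoside diphosphate kinase gene on the same strand, which had 0 counts in all 12 libraries. Its deposited length of 1884 bases is that of the GENCODE transcript Mrps34-203, annotated as subject to nonsense-mediated decay, which in GRCm38 (chr17:24895123-24897502) runs through the Nme3 exons (Nme3-201, chr17:24896500-24897522). The protein-coding transcript Mrps34-201 has 918 bases. How reads in the shared bases were assigned is not given in the sources used here, and whether reads of Nme3 are part of the row's counts was not tested. The span also lies within Mapk8ip3 on the other strand, which was at 95.9 CPM in WT and 109 CPM in KO.

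Mrps27, which has pentatricopeptide repeats of the kind that bind RNA, was at 37.8 to 49.9 CPM in WT (median 41.9) and 60.2 to 83.3 CPM in KO (median 65.5). There was no overlap (log2 fold change 0.68, SE 0.09, edgeR adjusted p = 5.77e-06; chr13:104134562-104216586), and the unnamed row inside its span on the other strand stayed at 6.00 and 6.14 CPM. Mrps23, which had the highest level per length of the small subunit at 198 FPKM and overlaps no other row, lay between 140 and 162 CPM in WT, median 147, and between 184 and 199 CPM in KO, median 193. All KO libraries were above all WT libraries (log2 fold change 0.37, SE 0.05, edgeR adjusted p = 4.17e-06; chr11:92648888-92656007). Mrps10 rose less (19.7 to 26.3 CPM in WT, 24.2 to 29.3 CPM in KO, log2 fold change 0.23, edgeR adjusted p = 0.0167), with overlap, and its adjusted p was 0.0536 without WT1.

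The 3 paralogues of the Mrps18 family differed. Mrps18a, which sits in the large subunit of the assembled particle despite its name, was at 47.2 to 58.2 CPM in WT (median 51.8) and 56.8 to 89.1 CPM in KO (median 67.9), a rise with overlap (log2 fold change 0.44, SE 0.09, edgeR adjusted p = 0.000743). Mrps18b was not called, at 27.2 to 30.2 CPM in WT and 26.8 to 33.4 CPM in KO (log2 fold change 0.04, SE 0.06). Mrps18c rested on few counts, at 0.202 to 0.759 CPM in WT and 0.137 to 0.600 CPM in KO, and a difference was not detectable at this depth (log2 fold change −0.24, SE 0.37). A pair of further members also sit elsewhere than their names say. Mrps30, a large-subunit protein in the particle, was at 44.9 to 51.4 CPM in WT and 38.2 to 45.5 CPM in KO (log2 fold change −0.27, SE 0.06, edgeR adjusted p = 0.00112). Mrps36, a component of the 2-oxoglutarate dehydrogenase complex rather than of the ribosome, was at 74.8 to 88.1 CPM in WT and 57.5 to 70.8 CPM in KO, without overlap (log2 fold change −0.42, SE 0.06, edgeR adjusted p = 1.08e-05).

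**Figure D3:**
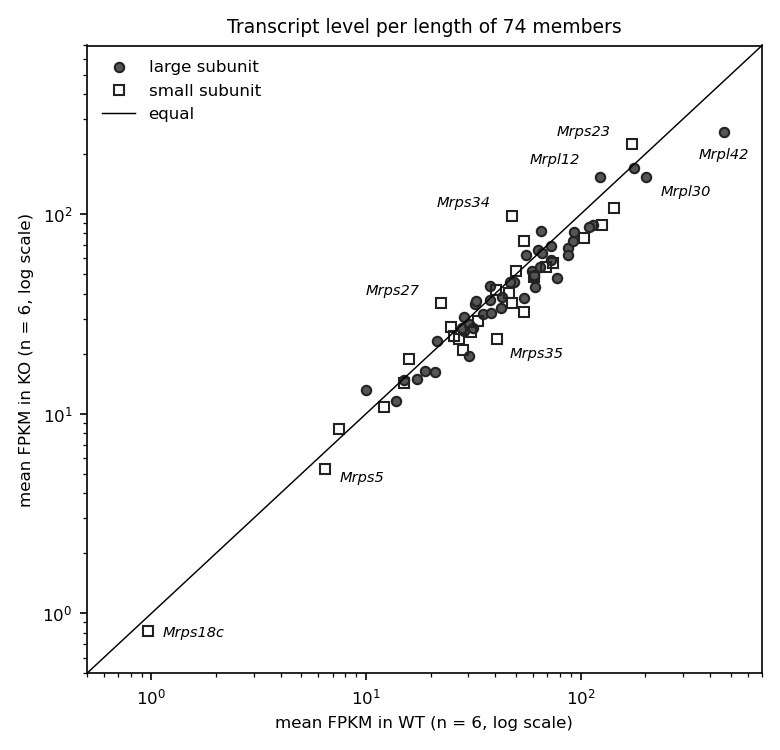
Mean deposited FPKM in WT (x axis) and KO (y axis), both on log scales and each over 6 libraries, for the 46 large-subunit members (filled circles) and 28 small-subunit members (open squares) tested, with the line of equal levels. Mrpl42 stands highest at a mean of 361 FPKM and below the line, Mrps34, Mrps27 and Mrps23 stand above it, and Mrps18c is lowest at 0.891 FPKM.

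Falls outnumbered rises both among members with a bacterial relative and among those found only in mitochondria. Of 47 bacterial-type members 29 fell and 6 rose (median log2 fold change −0.22), and of 26 mitochondria-specific members tested 11 fell and 6 rose (median −0.10). These are 61.7% falls and 12.8% rises in the first group and 42.3% and 23.1% in the second, against 25.5% and 25.6% of all rows. The spread was wider among the mitochondria-specific members (SD 0.41 against 0.26), which include both the largest fall, Mrpl42, and the largest rise, Mrps34. Across the 74 members the log2 fold change had a Pearson r of −0.12 with the log2 WT level, 0.22 with log2 length and 0.20 with GC content. The Spearman values, in the same order, were −0.24, 0.29 and 0.105. All are given as descriptions, since members share libraries.

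Large against small subunit, the medians were alike and the summed levels were not. Summed CPM of the large subunit ran from 2685 to 2962 in WT, median 2907, and from 2422 to 2569 in KO, median 2469. The mean fell by 13.6% in KO and the groups did not overlap. Summed CPM of the small subunit ran from 1268 to 1412 in WT and from 1233 to 1358 in KO, with overlap, and the mean fell by 3.52%. The large-to-small ratio, which does not depend on how libraries are scaled, was 2.12 ± 0.013 in WT and 1.90 ± 0.041 in KO (SD, n = 6). It fell by 10.4% without overlap (2.10 to 2.13 in WT, 1.84 to 1.96 in KO). No test was run on this ratio.

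The difference in the ratio depended on a few rows, and only small-subunit rows were left out here. Mrpl42 also weighs in the large-subunit sum, with means of 310 CPM in WT and 172 CPM in KO. The ratio without Mrpl42 was not taken. Without Mrps34, whose row runs into Nme3 (left out after its values were seen), the ratio was 2.22 ± 0.017 in WT and 2.10 ± 0.043 in KO, where it fell by 5.50% and still without overlap. Without Mrps23, Mrps27 and Mrps34, also chosen after their values were seen, it was 2.60 ± 0.030 in WT and 2.69 ± 0.048 in KO, so that its direction turned (3.24% higher) and the groups overlapped. The small-subunit sum without these 3 genes fell by 16.3% in KO, with no overlap. Placed by their position in the particle, 26 of 48 large-subunit members fell and 8 rose, and 14 of 25 small-subunit members fell and 4 rose. Leaving out the members whose span overlaps another row gave 14 falls and 4 rises of 26 large-subunit members and 11 falls and 2 rises of 13 small-subunit members, with medians of −0.21 and −0.39. Of all rows tested, 25.5% fell and 25.6% rose.

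**Figure D4:**
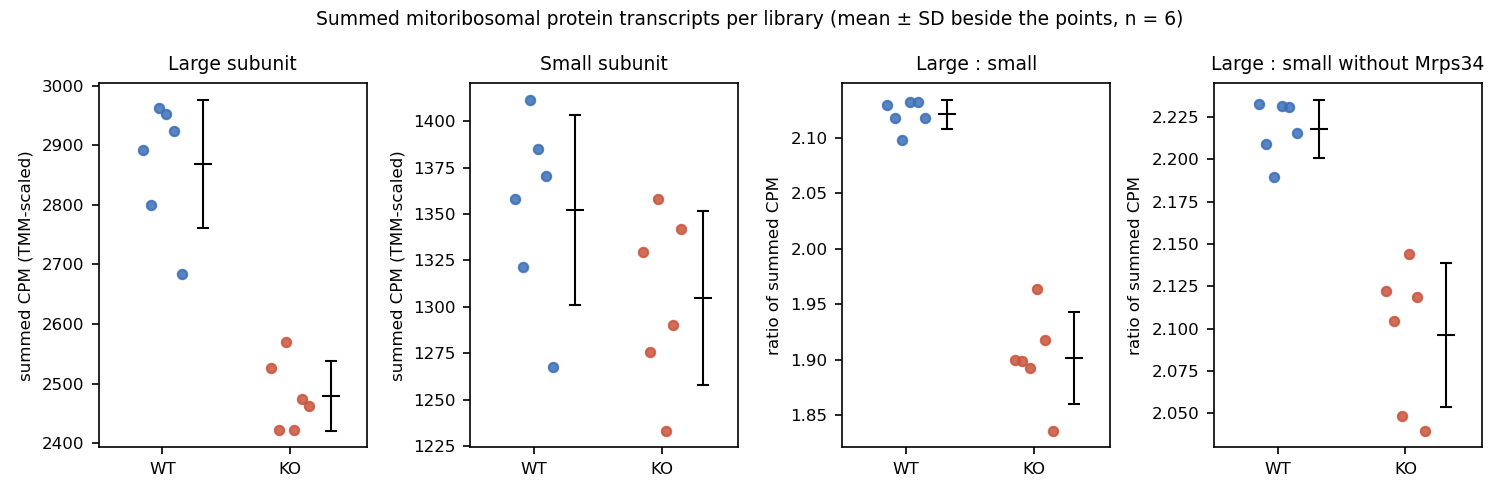
Summed TMM-scaled CPM of the large-subunit and small-subunit members and the ratio of the sums, with all members and without Mrps34, in each of 6 WT (blue) and 6 KO (red) libraries, with the mean ± SD beside the points. The y axes do not start at 0. The large-subunit sums and both ratios do not overlap between groups (2.12 against 1.90 with all members, 2.22 against 2.10 without Mrps34), and the small-subunit sums do.

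Other genes of mitochondrial translation followed with medians close to those of the members. For all gene lists from here on, the all-row shares are 25.5% lower and 25.6% higher. Of 6 mitoribosomal proteins under other names 4 fell and 0 rose by edgeR (median −0.21), with sums of 411 to 443 CPM in WT and 366 to 390 CPM in KO. At an unadjusted p under 0.05, edgeR had 1 rise, Gadd45gip1, and DESeq2 and limma-voom called 0. Dap3, a GTP-binding protein of the small subunit, was at 95.4 to 105 CPM in WT and 68.4 to 81.4 CPM in KO (log2 fold change −0.46, SE 0.05, edgeR adjusted p = 1.55e-06). Ict1 (−0.25) and Aurkaip1 (−0.20) fell too, and Chchd1 was the fourth (−0.22). Of 23 genes of mitoribosome assembly and rRNA modification 11 fell and 2 rose (median −0.22). Their summed level was not lower, at 795 to 844 CPM in WT and 827 to 972 CPM in KO, with overlap. Tfb1m, which methylates the small-subunit rRNA, had the largest change there, from 8.11 to 10.5 CPM in WT to 3.05 to 4.17 CPM in KO (log2 fold change −1.35, SE 0.11, edgeR adjusted p = 2.79e-08). Trub2, a pseudouridine synthase, rose (19.2 to 20.6 CPM in WT, 31.0 to 37.1 CPM in KO, log2 fold change 0.77), and so did Afg3l2, a subunit of the protease that matures Mrpl32 (175 to 206 and 248 to 339 CPM, 0.64). Mrpl32 itself was lower (30.4 to 36.0 CPM in WT, 23.6 to 27.6 CPM in KO, log2 fold change −0.33).

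Of 15 translation factors and activators 8 fell and 2 rose (median −0.23), with sums of 889 to 949 CPM in WT and 749 to 855 CPM in KO. Mtrf1, of the release factor family, had a mean of 15.5 CPM in WT and 8.42 CPM in KO (log2 fold change −0.88, SE 0.11). Mrrf, the ribosome recycling factor (−0.65), and Lrpprc, which stabilises mitochondrial mRNAs (−0.64), fell without overlap of the groups. The rises were those of Taco1, a translational activator of COX1 (29.0 to 41.5 CPM in WT, 44.5 to 58.8 CPM in KO, log2 fold change 0.49), and Guf1, a ribosome-dependent GTPase (0.31).

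Against the gene groups most like them, the members lay between the nuclear oxidative phosphorylation subunits, of which 71 of 76 fell and 2 rose (median −0.44), and the cytosolic ribosomal proteins, of which 27 of 69 fell and 0 rose by edgeR (median −0.12). No cytosolic gene rose at an unadjusted p under 0.05 either (0 by edgeR), and DESeq2 and limma-voom called 0. The summed FPKM of the members was 5.83% to 6.40% of that of the oxidative phosphorylation subunits in WT and 6.57% to 7.69% in KO, with every KO library above every WT library. Relative to the cytosolic ribosomal proteins it was 15.9% to 18.6% in WT and 15.8% to 18.7% in KO, which overlapped.

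**Figure D5:**
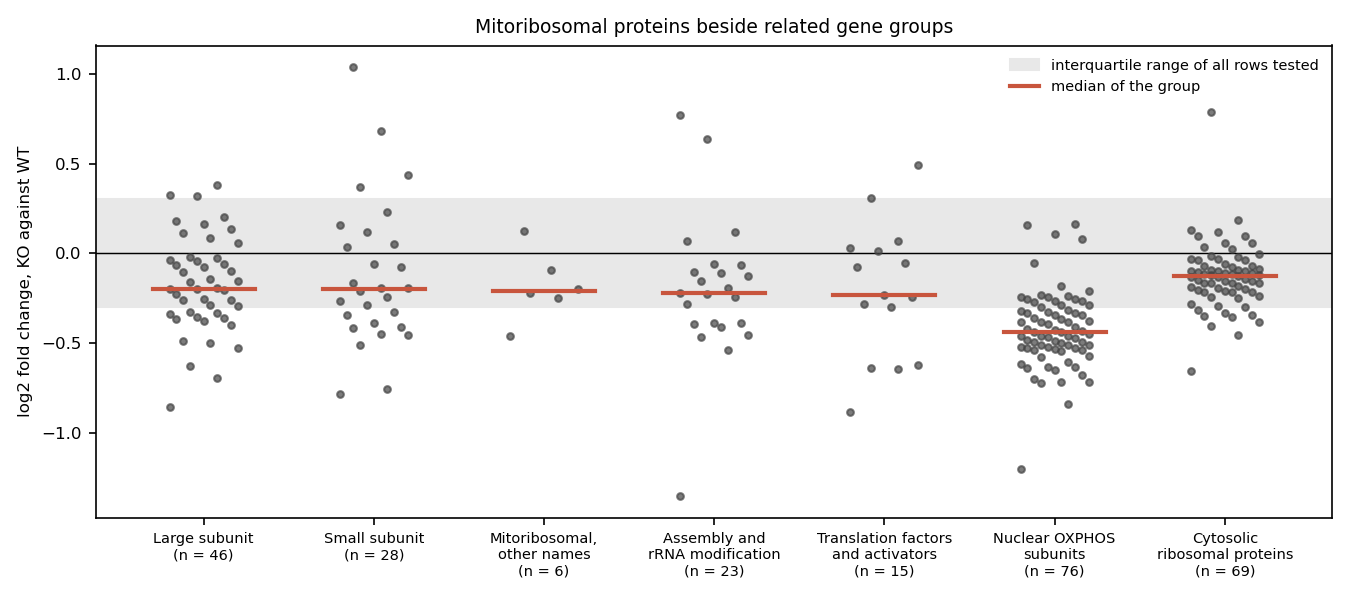
Log2 fold change of KO against WT (y axis) of each tested gene in the large subunit, the small subunit and 5 related groups, 1 point a gene, with the number of genes under each name. Red bars are group medians (−0.20 for both subunits, −0.44 for nuclear oxidative phosphorylation subunits, −0.12 for cytosolic ribosomal proteins), and the grey band is the interquartile range of all 17155 rows tested.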

How the data were processed

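Ventricular wall RNA in 6 WT and 6 KO libraries was analysed, grouped by the sample labels. The authors purified poly-A mRNA, mapped reads (HISAT2 2.0.5 and mm10 in the submitters' processing notes) and deposited raw counts per gene from HTSeq. The row identifiers are those of the C57BL/6NJ assembly, so member coordinates are on it, while promoters and GENCODE transcripts are on GRCm38. Whether reads were counted by strand is not given in the sources used here, so genes that overlap another row are uncertain. The authors also deposited FPKM per library, used here to compare levels between genes and to plot WT against KO levels. The length behind each FPKM is not given in the sources used here. For some members, such as Mrpl30, Mrpl18 and Mrps23, it is not the deposited row length, so ranks by FPKM depend on it. FPKM also gave the summed levels relative to the oxidative phosphorylation subunits and cytosolic ribosomal proteins. The change of the large-to-small ratio was taken from FPKM as an alternative (−10.6%). The authors' group means of scaled counts (a signal), their log2 fold changes and their p-values come from their own comparison with DESeq and were not used.

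The quasi-likelihood test of edgeR 4.0.16 (R 4.3.3) was run with robust dispersions and TMM factors on the 17155 rows that filterByExpr retained, and p-values were adjusted over these by Benjamini-Hochberg. CPM are TMM-scaled. The same steps were tested on simulated counts. Library totals were 23747014 to 31393393 counts, and the Poisson precision they give is for counting error only. Replicates of a group all differed beyond counting error (lowest chi-square over its degrees of freedom, 7.32). Sums over members, ratios and medians were given without a test. The members and gene lists were chosen with earlier results of these data known. Named members were, per subunit, the 6 largest falls and rises among calls, the 3 highest in FPKM, all members called against the majority, the stalk proteins, the Mrps18 family, Mrps30, Mrps36 and members below the filter. In related lists they were the 3 smallest p-values and the calls against the majority. Other named genes were chosen after their values were seen. The alternatives were other normalizations, DESeq2 1.42.0, limma-voom (limma 3.58.1), other filters, a replicate block, each library left out, removal of unannotated loci, removal of length and GC trends, placement by position in the particle and omission of overlapping rows.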

Additional observations from a re-analysis of the deposited data

Results flagged for a closer look

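In 9 of 72 groups of 6 libraries examined (36 quantities in WT or KO), 1 library stood apart from the other 5 by Dixon's criterion, where chance gives about 3.6. KO3 was high for Mrpl16 (84.2 CPM, the others 66.2 to 68.1), Mrpl41 (39.1 CPM, the others 36.0 to 36.9) and Mrps31 (37.6 CPM, the others 30.1 to 31.6). KO1 was high for Mrpl37 (58.2 CPM, the others 51.0 to 53.5), Mrpl43 (60.4 CPM, the others 50.7 to 52.6), Mrps36 (70.8 CPM, the others 57.5 to 62.2) and Sdhaf4 (2.73 CPM, the others 2.25 to 2.42). In WT, WT3 was high for Mrpl36 (32.1 CPM, the others 25.2 to 27.3) and WT6 low for Mrps30 (44.9 CPM, the others 49.5 to 51.4). The cause was not tested.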

How the results depend on the processing

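Of 41 falls 37 and of 12 rises 8 stayed called with each library left out in turn, and 33 and 8 under every setting. No named member that was called changed direction. Of those not called, the sign turned for Mrpl18 with length and GC trends removed and for Mrps18b without KO1, both near 0. Mrpl10 was lost with no filter on low counts and with the replicate block (adjusted p 0.0614 and 0.0645, edgeR). With a library left out, large-subunit falls ranged from 24 to 28 and rises from 4 (without WT1) to 7, small-subunit falls from 13 to 16 and rises from 4 to 5, and the change of the large-to-small ratio from −10.96% to −9.76%. Replicate numbers did not pair the libraries (same-number correlations of −0.16 to 0.02, and 1 of 6 WT libraries had its best KO partner with its own number). The replicate block gave 25 falls and 6 rises in the large subunit and 16 and 5 in the small. With length and GC trends removed the large-subunit median was −0.14, with 24 falls and 8 rises. The small-subunit median was −0.16, with 13 falls and 6 rises. With the block added the median was −0.15 in both subunits, with 21 falls and 8 rises in the large and 13 and 6 in the small. The tested members had a median deposited length of 1417.5 bases, against 2778 over all rows tested. Without members overlapping another row there were 14 falls and 4 rises in the large subunit and 2 rises in the small, whose median became −0.39, so the medians differed by 0.18; fewer members entered. The ratio changed by −5.50% without Mrps34 and by 3.24% without Mrps23, Mrps27 and Mrps34, settings added after seeing the data. Values under 1 CPM, as for Mrps18c, rest on few counts.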

Other observations

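WT6 was the lowest WT library for 37 of 74 members, and KO3 the highest KO library for 30 of 74. WT6 was also the lowest WT library for Sdhaf4 (14.3 CPM, the others 24.1 to 30.3). Without WT6 the large subunit had 25 falls and 5 rises and the small subunit 15 and 5, and without KO3 28 and 5 and 16 and 5.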
